A study of Mus musculus with 4 samples.

Results

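The genes of cholesterol synthesis, of its control by SREBP2, and of the turnover, transport and esterification that follow were examined in mouse liver. Members were taken from a list of 28 gene symbols and found on the arrays by the transcript accession of each probe. A probe was matched for 27 of the 28 genes, against 23462 genes in all, and 48 of the 33767 probes matched to a gene belonged to them. Acat2, the cytosolic thiolase that condenses acetyl-CoA at the entry of the pathway, had no matched probe and has no value here. All 27 genes with a probe were well above background on every one of the 4 arrays. So were 13981 genes in all, called the detected genes here, and the pathway is set beside them throughout.

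Liver RNA was hybridised to one-colour Agilent arrays, 1 array for each combination of genotype and diet. F/F mice carry Lpiat1 (Mboat7) alleles with loxP sites around exons and no Cre. LKO mice carry the same floxed alleles together with Alb-Cre, in which the albumin promoter drives Cre in hepatocytes, so that the other cells of the liver keep the gene. Lpiat1 encodes the acyltransferase that places arachidonic acid in phosphatidylinositol. All mice were males on a C57BL/6 background, 24 weeks old, and were fed chow (CE2) or a high-fat diet (HFD-60, HFD) for 18 weeks from 6 weeks of age. Whether an array holds RNA of 1 mouse or of several is not stated. The comparisons ask how the pathway differed between genotypes on each diet and between diets in each genotype.

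Cells make cholesterol from acetyl-CoA in a long chain of reactions. The early steps form mevalonate and its phosphates, the middle steps join isoprenoid units into squalene, and the late steps close the sterol ring and trim it. SREBP2, a transcription factor held in the membrane of the endoplasmic reticulum, drives most of these genes. When sterols are low, its escort SCAP carries it to the Golgi, where proteases release the active part, and when sterols are high, INSIG proteins hold SCAP and SREBP2 back. The liver is a main site of this synthesis and of the clearance of lipoproteins, and cholesterol in excess is stored as esters made by SOAT enzymes.

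Promoters of the genes that the results below turn on are shown first, to show which elements named for this pathway lie there. They come from RefSeq (build GRCm38.p6), read 5′ to 3′ on the strand of the gene and cut to the bases before the start that overlap no annotated gene. Capitals mark TCACNCCAC (a form of the sterol regulatory element that SREBP binds), CCAAT (bound by NF-Y) and GGGCGG (bound by Sp1), on either strand. Hmgcs1 and Mvd are shown as the early-step genes that were at least 2-fold higher on HFD in both genotypes, at chr13:119690101-119690350 (plus strand) and chr8:122443423-122443655 (minus strand). Mvk is shown for its 5 CCAAT matches (chr5:114444074-114444263, plus strand). Insig2 moved opposite ways with diet (chr1:121332663-121332839, minus strand), and Ebp was a late-step gene that was lower on HFD, in F/F by an amount that hung on the scaling (chrX:8193513-8193762, minus strand).
Hmgcs1: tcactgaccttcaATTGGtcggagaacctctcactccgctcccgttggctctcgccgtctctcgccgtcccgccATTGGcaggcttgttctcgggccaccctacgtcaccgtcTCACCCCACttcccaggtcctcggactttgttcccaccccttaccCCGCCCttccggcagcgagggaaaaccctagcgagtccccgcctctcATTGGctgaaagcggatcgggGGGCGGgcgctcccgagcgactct
Mvd: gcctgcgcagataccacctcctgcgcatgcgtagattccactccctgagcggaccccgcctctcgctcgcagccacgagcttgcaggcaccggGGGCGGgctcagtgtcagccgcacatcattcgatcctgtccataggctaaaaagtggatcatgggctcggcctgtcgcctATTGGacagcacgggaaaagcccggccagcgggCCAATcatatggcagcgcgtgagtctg
Mvk: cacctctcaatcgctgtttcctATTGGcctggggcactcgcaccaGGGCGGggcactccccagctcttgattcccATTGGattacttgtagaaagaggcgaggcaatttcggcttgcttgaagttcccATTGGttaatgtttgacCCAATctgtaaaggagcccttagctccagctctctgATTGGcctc
Insig2: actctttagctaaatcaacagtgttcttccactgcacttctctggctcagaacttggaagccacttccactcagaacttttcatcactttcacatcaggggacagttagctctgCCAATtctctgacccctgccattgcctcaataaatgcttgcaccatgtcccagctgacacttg
Ebp: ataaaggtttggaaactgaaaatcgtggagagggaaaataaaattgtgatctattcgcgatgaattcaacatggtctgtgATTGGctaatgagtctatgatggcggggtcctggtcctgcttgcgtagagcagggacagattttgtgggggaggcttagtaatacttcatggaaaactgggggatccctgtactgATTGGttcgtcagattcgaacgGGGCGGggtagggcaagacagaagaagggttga

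In the RefSeq table, 23 of the 28 genes had at least 1 promoter, with 29 windows of 250 bases before the start. CCAAT was found in 21 of these windows (72.4%), against 33.8% of 32851 promoters of the table and 34.8% of those of detected genes. GGGCGG was found in 22 (75.9%), against 32.7% and 52.4%. The longer element TCACNCCAC was in 1 window, that of Hmgcs1 (3.45% against 1.05% and 1.09%), 137 bases before the start and between CCAAT matches on the other strand. In the stretches shown, Mvk held 5 CCAAT matches in 190 bases, Mvd and Ebp held 2, and Insig2 held 1. The windows counted above were not cut, and a window of Insig2 held GGGCGG outside the stretch shown. Ebp, which was lower on HFD in LKO, carried the same pair of elements as Mvd, which was higher. A match is a description of the letters, and no binding was measured here.

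Levels are given as scaled signal, the signal of a spot divided by the 75th percentile of its array, so that 1 is the level of that percentile. Differences are in log2 of the scaled signal, where 1 is a 2-fold difference. The brightest probe stands for a gene, and levels are compared only between arrays, never between genes. With 1 array per condition there is no replicate check and no test of any difference. The technical spread was read from 300 probes printed more than once on an array, for which the SD of the difference of 2 spots was 0.0891, and differences within 2 SD (0.178) are called within the spot spread. The scanner software gives a wider error, 0.204 to 0.209 for a difference of these genes. Neither includes the difference between mice.

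On the 4 arrays, 53.0% to 57.0% of the spots were well above background, and no spot was saturated. Mboat7, the gene deleted in LKO hepatocytes, was measured by 1 probe with a scaled signal of 4.97 in F/F chow, 4.04 in LKO chow, 4.49 in F/F HFD and 3.72 in LKO HFD. LKO was below F/F on either diet (-0.30 on chow and -0.27 on HFD). Whether its probe lies in the deleted exons was not determined. All 8 hepatocyte markers were present on every array. All 8 were below 0 for HFD minus chow in both genotypes (median -0.40 in F/F and -0.59 in LKO). The medians of the detected genes were -0.03 in F/F and -0.09 in LKO. The 75th percentile that divides the signal was higher on HFD (263 in F/F and 296 in LKO) than on chow (222 and 213). Before this division, Ttr in F/F was at 92501 on chow and 101640 on HFD, and Cps1 at 7877 and 4325. In whole liver, fewer cells of a type, less RNA per cell and the effect of the scaling cannot be told apart.

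Most synthesis genes had a higher scaled signal on HFD than on chow in both genotypes. In F/F, 21 of 27 genes were above 0 in the difference HFD minus chow, with a median of 0.52, whereas the median of the detected genes was -0.03. In LKO, 21 of 27 were above 0 with a median of 0.32, against -0.09 for the detected genes. Of the detected genes, 46.8% were above 0 in F/F and 41.1% in LKO. Among the 18 enzymes that lead to cholesterol, the median was 0.55 in F/F and 0.41 in LKO, and 15 were above 0 in both. Both HFD arrays lay above both chow arrays for 19 of the 27 genes (70.4%) and for 15 of the 18 enzymes, against 28.1% of the detected genes. The reverse order, both HFD arrays below both chow arrays, held for 5 genes (18.5%), namely Ggps1, Tm7sf2, Lbr, Ebp and Scap, against 38.8%. F/F chow was the lowest array for 18 of the 27 genes and for 25.4% of the detected genes.

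**Figure D1:**
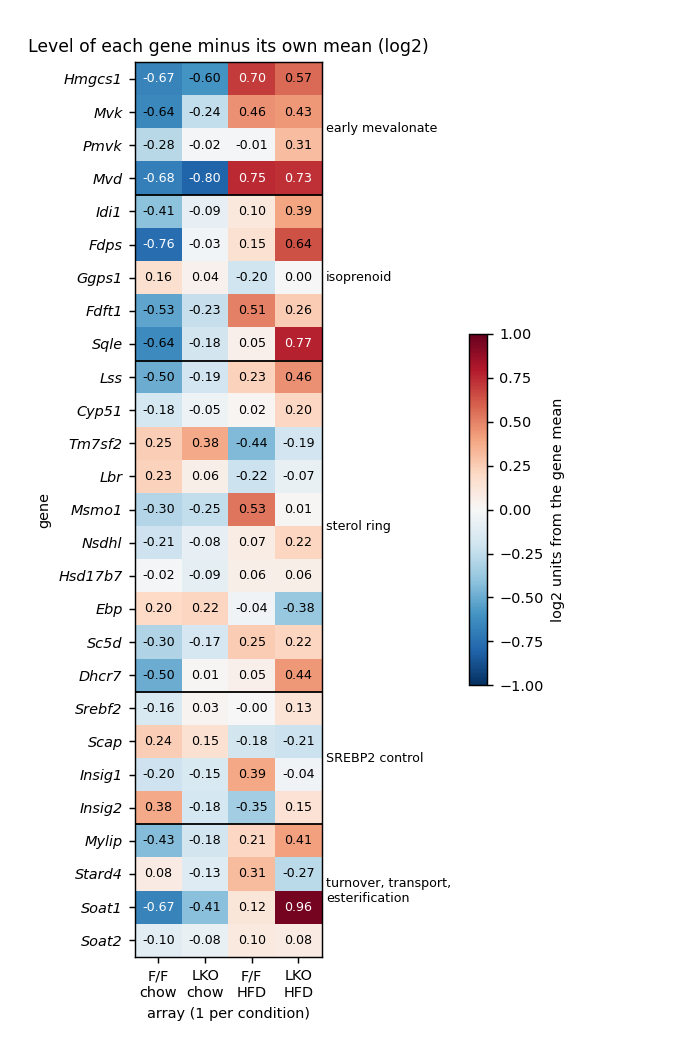
Level of each of the 27 genes (rows, grouped by role) on each of the 4 arrays (columns), as log2 scaled signal minus the mean of that gene over the 4 arrays; red is above and blue below the mean. F/F chow was the lowest array for 18 genes, against 25.4% of the detected genes. LKO HFD was the highest for 12 and F/F HFD for 9, against 25.7% and 20.6% of the detected genes.

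At the 2-fold threshold, 4 genes were higher on HFD in F/F (14.8% of the 27), Hmgcs1, Mvk, Mvd and Fdft1, where 4.31% of the detected genes were. With the mean of all probes in place of the brightest one, Hmgcs1 and Mvd stayed above 2-fold in F/F, and Mvk (0.87) and Fdft1 (0.93) lay just under it. In LKO, 3 were higher (11.1%), Hmgcs1, Mvd and Soat1, where 6.93% were. No gene of the pathway was at least 2-fold lower on HFD, where 2.2% of the detected genes were lower for F/F and 3.31% in LKO. At 1.5-fold, 11 genes were higher on HFD in F/F (40.7% against 11.9%) and 8 in LKO (29.6% against 13.5%). The 1.5-fold lower genes were Tm7sf2 and Insig2 in F/F (7.41% against 8.21%) and Ebp in LKO (3.7% against 10.8%). Beyond 2 times the error of the scanner software, F/F had 14 genes higher on HFD (51.9%, against 17.4% of the detected genes) and 4 lower (14.8% against 14.1%). LKO had 11 higher (40.7% against 17.8%) and 2 lower (7.41% against 18.8%).

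**Figure D2:**
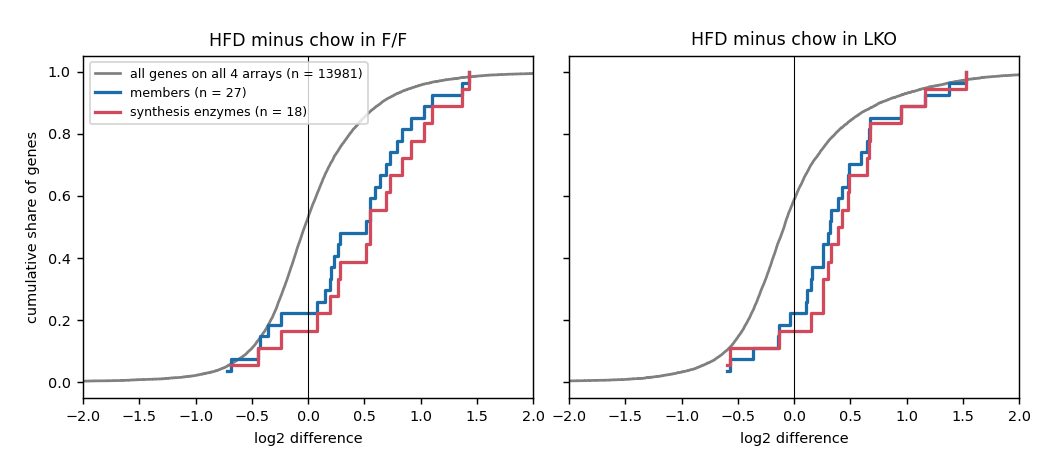
Cumulative share of genes (y axis) against the log2 difference HFD minus chow (x axis, shown from -2 to 2) in F/F (left) and LKO (right), for the 13981 detected genes, the 27 genes of the pathway and the 18 synthesis enzymes. The curves of the pathway lie to the right of the curve of the detected genes over most of the range, with medians of 0.52 (F/F) and 0.32 (LKO), and meet it among the genes that were lower on HFD.

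The early mevalonate steps differed most between diets, with a median difference over 4 genes of 1.23 for F/F and 0.92 for LKO. Hmgcs1, which makes HMG-CoA, had a scaled signal of 20.4 in F/F chow, 21.5 in LKO chow, 52.6 in F/F HFD and 48.3 in LKO HFD. The HFD arrays lay far above the chow arrays and the genotypes close together, a diet difference of 2.58-fold for F/F and 2.24-fold for LKO. Mvd, which decarboxylates mevalonate diphosphate, was at 0.433 in F/F chow, 0.399 in LKO chow, 1.17 in F/F HFD and 1.15 in LKO HFD. That made 2.70-fold in F/F and 2.89-fold in LKO. Mvd was dimmer than the 75th percentile on chow, and with normexp background correction its log2 difference between diets was 1.05 in F/F and 1.08 in LKO, against 1.43 and 1.53 with the processed signal. Mvd had the highest difference between diets with the processed signal, and Hmgcs1 had it with normexp in both genotypes (1.44 and 1.20) and with quantile normalization in F/F. Mvk, mevalonate kinase, was at 4.31 in F/F chow, 5.69 in LKO chow, 9.25 in F/F HFD and 9.08 in LKO HFD. Its diet difference was 1.10 in F/F and 0.67 in LKO, with LKO already above F/F on chow (0.40) and the HFD arrays within the spot spread of each other. The dimmer probe of Mvk gave 0.64 and 0.67 for diet and 0.07 for genotype on chow. Pmvk, the next kinase, ran from 18.1 in F/F chow over 21.6 in LKO chow and 21.8 in F/F HFD to 27.1 in LKO HFD, with differences of 0.27 and 0.33 between diets and 0.25 and 0.32 between genotypes.

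Of the isoprenoid steps to squalene epoxide, 4 of 5 genes were higher on HFD in both genotypes (median 0.69 for F/F and 0.49 for LKO). The share of the detected genes that were higher was 46.8% in F/F and 41.1% in LKO. Fdps, farnesyl diphosphate synthase, had a scaled signal of 36.7 in F/F chow, 61.1 in LKO chow, 69.1 in F/F HFD and 96.7 in LKO HFD. Each of the diet and genotype differences of Fdps was positive, 0.92 and 0.66 for HFD over chow in F/F and LKO and 0.74 and 0.48 for LKO over F/F on chow and HFD. Fdps on chow (1.67-fold) was the highest genotype difference of the pathway on that diet. Sqle, squalene epoxidase, the rate-limiting oxygenation after squalene, showed the same order of the arrays with 4.67 (F/F) and 6.41 (LKO) on chow and 7.51 and 12.4 on HFD. The differences of Sqle were 0.69 and 0.95 between diets and 0.46 and 0.72 between genotypes. Idi1, the isomerase of isopentenyl diphosphate, ran in the same order from 11.1 over 13.9 and 15.9 to 19.4, with genotype differences of 0.33 and 0.29. Fdft1, squalene synthase, was at 11.6 in F/F chow, 14.2 in LKO chow, 23.8 in F/F HFD and 20.0 in LKO HFD. For Fdft1, LKO was above F/F on chow (0.29) and below it on HFD (-0.25), and the diet difference was 1.03 in F/F and 0.49 in LKO. The second probe of Fdft1 gave 0.17 and -0.09 for genotype. Ggps1, which branches off to the geranylgeranyl group used to prenylate proteins, was the exception, at 1.17 in F/F chow, 1.08 in LKO chow, 0.916 in F/F HFD and 1.05 in LKO HFD. It was lower on HFD in F/F (-0.36) and within the spot spread in LKO (-0.04), and its 5 probes did not give one answer for genotype on HFD (-0.12 to 0.20).

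**Figure D3:**
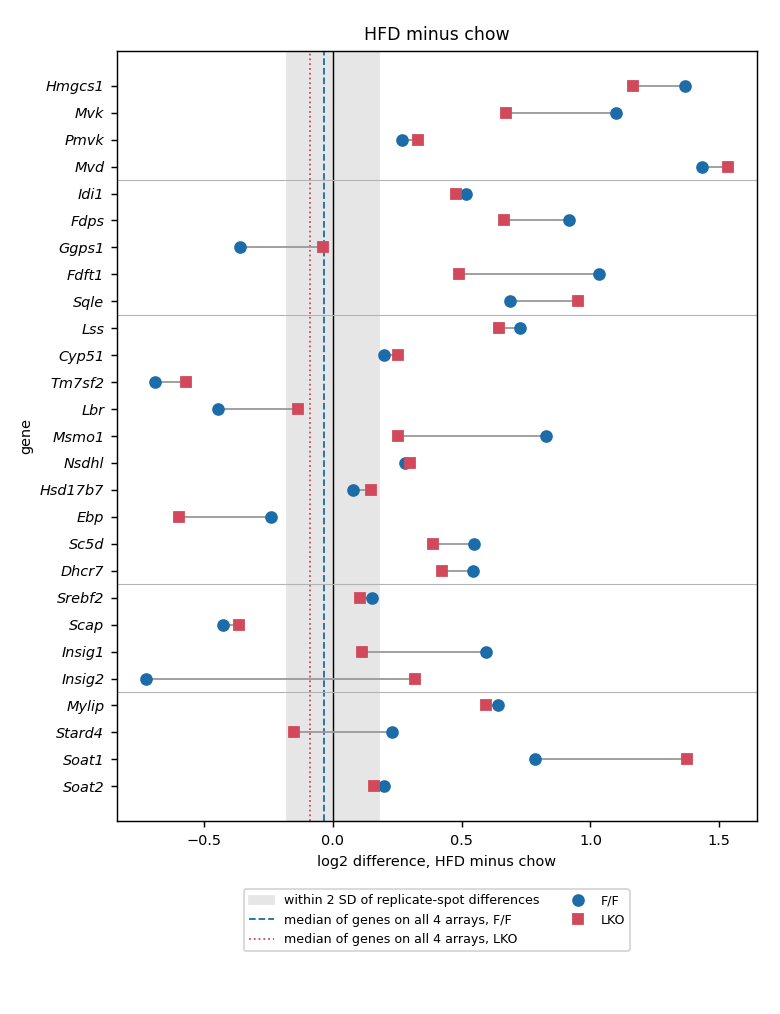
Log2 difference HFD minus chow (x axis) of each gene (rows, grouped by role) in F/F (circles) and LKO (squares); the grey band spans 2 SD of the difference of replicate spots on each side of 0, and dashed and dotted lines mark the medians of the detected genes. Mvd and Hmgcs1 lay farthest to the right in F/F, Soat1 lay beyond 1 in LKO, and Insig2 lay on opposite sides of 0 (-0.72 in F/F and 0.32 in LKO).

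The sterol ring steps were mixed, with 7 of 10 genes above 0 for HFD minus chow in each genotype. The share of the detected genes above 0 was 46.8% (F/F) and 41.1% (LKO). The median of the ring steps was 0.24 for F/F and 0.25 for LKO. Lss, which closes the ring to lanosterol, had a scaled signal of 2.49 in F/F chow, 3.09 in LKO chow, 4.12 in F/F HFD and 4.84 in LKO HFD, 0.73 and 0.65 higher on HFD. Dhcr7, the reductase of the final double bond of dehydrocholesterol, was at 1.30 (F/F) and 1.85 (LKO) on chow and at 1.89 and 2.48 on HFD. LKO chow and F/F HFD lay close together for Dhcr7, and the genotype differences were 0.51 on chow and 0.39 on HFD. Msmo1, which oxidises the methyl groups of the ring, was at 24.1 in F/F chow, 24.9 in LKO chow, 42.8 in F/F HFD and 29.7 in LKO HFD. F/F HFD stood apart as the high array of Msmo1, with HFD minus chow at 0.83 for F/F and 0.26 for LKO, and LKO minus F/F at -0.53 on HFD. The second probe of Msmo1 gave -0.29 there. Sc5d, a sterol desaturase, was 0.55 and 0.39 higher on HFD with the genotypes within the spot spread on both diets. Cyp51 (lanosterol demethylase), Nsdhl (a dehydrogenase in the removal of ring methyl groups) and Hsd17b7 (a ketoreductase of the same complex) differed by 0.08 to 0.30 between diets.

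The ring steps also held the enzymes that were lower on HFD. Tm7sf2 and Lbr both encode sterol reductases for the same double bond, and LBR is also an inner nuclear membrane protein that binds lamin B. Tm7sf2 had a scaled signal of 64.1 in F/F chow, 70.1 in LKO chow, 39.8 in F/F HFD and 47.3 in LKO HFD, so that both HFD arrays were low (-0.69 in F/F and -0.57 in LKO). Lbr was at 4.66 (F/F) and 4.14 (LKO) on chow and at 3.42 and 3.78 on HFD, with a diet difference of -0.44 in F/F and of -0.13, within the spot spread, in LKO. Ebp, the sterol isomerase, was at 149 in F/F chow, 151 in LKO chow, 127 in F/F HFD and 99.9 in LKO HFD. The chow arrays were alike for Ebp, and the diet difference was -0.24 in F/F and -0.60 in LKO. With quantile normalization it was -0.05 in F/F and -0.37 in LKO, and in the deposited table -0.10 and -0.45, so that in F/F it lay within the spot spread.

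Genotype differences reached 2-fold for none of the genes. On chow, 20 of 27 genes were above 0 in LKO minus F/F, against 51.7% of the detected genes (median 0.13 against 0.01). Of the 27, 14 lay within the spot spread. Beyond it, 11 were higher (40.7%, against 19.1% of the detected genes) and 2 lower (7.41% against 17.5%). On HFD, 16 were above 0 and 11 below, against 43.8% of the detected genes above 0 (median 0.14 against -0.04). Here 10 lay within the spot spread, 12 were higher beyond it (44.4% against 23.3%) and 5 lower (18.5% against 29.5%). With the 75th percentile taken over the probes detected on every array, 21 were above 0 and 6 below on HFD. The median of all genes then moved from -0.03 to 0.02, and the median of the 27 genes lay 0.17 above it in both settings. At least 2-fold higher and lower were 0 genes in LKO on chow (0.544% and 0.536% of the detected genes) or on HFD (1.42% and 1.22%). At 1.5-fold, Fdps was higher on chow (3.7% of the genes, against 2.42%) and none was lower (2.35%). On HFD, Sqle and Soat1 were higher (7.41% against 6.17%) and Stard4 was lower (3.7% against 4.75%), shares close to those of the detected genes. LKO was above F/F by more than the spot spread on both diets for 8 genes (29.6%, against 7.32% of the detected genes), namely Pmvk, Idi1, Fdps, Sqle, Lss, Dhcr7, Mylip and Soat1. Another probe of Lss gave 0.04 on chow and -0.03 on HFD, and other probes of Soat1 did not give one direction on chow. Stard4 was the only gene of the 27 lower in LKO by more than the spot spread on both diets (3.7% against 6.19%). Beyond 2 times the error of the scanner software, Fdps, Sqle and Dhcr7 were higher (11.1%, against 4.18% of the detected genes) and Insig2 was lower (3.7% against 4.08%) in LKO on chow. On HFD, Fdps, Sqle, Insig2 and Soat1 were higher (14.8% against 10%) and Msmo1, Insig1 and Stard4 were lower (11.1% against 9.33%).

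**Figure D4:**
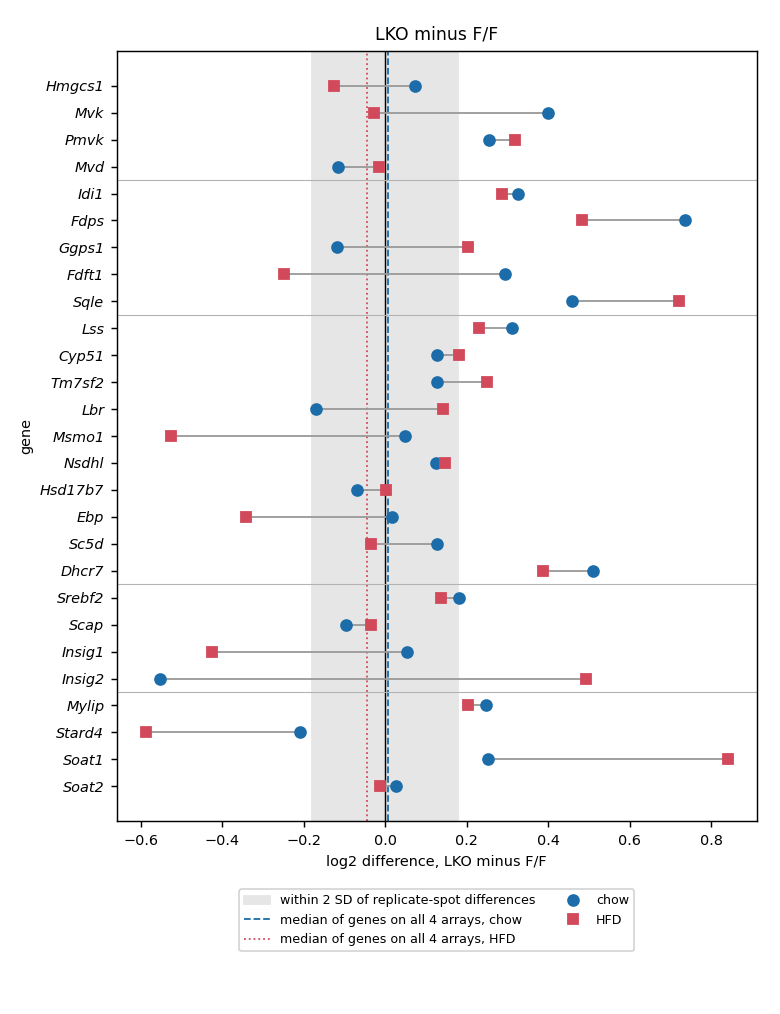
Log2 difference LKO minus F/F (x axis) of each gene (rows, grouped by role) on chow (circles) and HFD (squares); the grey band spans 2 SD of the difference of replicate spots on each side of 0, and dashed and dotted lines mark the medians of the detected genes. Fdps and Sqle lay to the right of the band on both diets, and Insig2 lay to its left on chow (-0.55) and to its right on HFD (0.49).

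Among the genes of SREBP2 control, the messenger of SREBP2 itself hardly varied. Srebf2 had a scaled signal of 0.400 in F/F chow, 0.453 in LKO chow, 0.444 in F/F HFD and 0.488 in LKO HFD, with differences of 0.11 to 0.18 in all 4 comparisons. Scap was lower on HFD, at 24.9 and 23.3 on the chow arrays of F/F and LKO and at 18.5 and 18.1 on the HFD arrays (-0.42 and -0.36). The messengers of the INSIG proteins, which retain SCAP in the endoplasmic reticulum, had opposite extremes in F/F HFD. Insig1, itself a target of SREBP, was at 1.79 in F/F chow, 1.86 in LKO chow, 2.71 in F/F HFD and 2.02 in LKO HFD, so that F/F HFD was the high array (0.59 for diet in F/F, 0.11 in LKO, and -0.43 for genotype on HFD). Insig2, at 52.4 in F/F chow, 35.8 in LKO chow, 31.8 in F/F HFD and 44.7 in LKO HFD, had its lowest array where Insig1 had its highest. HFD went with less Insig2 in F/F (-0.72) and with more in LKO (0.32), and LKO was below F/F on chow (-0.55) and above it on HFD (0.49). The other 2 probes of Insig2 gave the same directions in all 4 comparisons, with -0.72 and -0.84 for diet in F/F, 0.34 and 0.32 for diet in LKO, -0.52 and -0.64 for genotype on chow and 0.54 and 0.53 for genotype on HFD. The diet difference in LKO minus that in F/F was 1.04 for Insig2, the highest of the pathway, and -0.57 for Msmo1, the lowest, with a median of -0.04 over the 27 genes. Insig2 and Soat1 exceeded 1.5-fold in this difference of differences in either direction (7.41% of the genes, against 13.9% of the detected genes).

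Genes of the daily clock differed between the arrays on HFD. Of the 10 clock genes detected on every array, 8 were lower in LKO than in F/F on HFD. In that comparison, 43.8% of the detected genes were above 0. The summed scaled signal of the whole list of 11 was 111 in F/F chow, 115 in LKO chow, 146 in F/F HFD and 80.0 in LKO HFD. Npas2 of that list was well above background on 0 arrays, and its share in the sum is background. Arntl (BMAL1), which peaks opposite to Dbp over the day, was at 0.654 (F/F) and 0.479 (LKO) on chow and at 0.118 and 0.601 on HFD. Dbp was at 27.2 and 28.6 on chow and at 54.7 and 23.4 on HFD. F/F HFD was the highest array for 9 of the 27 genes, against 20.6% of the detected genes. It was the lowest for 4, against 19.3%. Among these, it was the low array of Insig2, as of Arntl, and the high array of Insig1 and Msmo1, as of Dbp. The time of day of sampling is not given for the arrays, and its part in the values of these genes was not tested. Transcripts of red blood cells were also highest in F/F HFD, with a summed scaled signal of 203 over 5 markers, each detected on every array, against 103 to 109 on the other arrays. Hba-a1 made up 151 of that sum, whereas Alas2 of the same list was lower in F/F HFD (16.0) than on the chow arrays of F/F (21.4) and LKO (21.2). The part of red blood cells was not tested. Exocrine pancreas markers, all 8 detected on every array, were the other list that differed, with a summed scaled signal that on chow was 23.4 for F/F and 13.9 for LKO, and on HFD 12.3 and 45.7. All 8 were higher in LKO HFD than in F/F HFD and LKO chow, 7 of them at least 2-fold in each. Of the detected genes, 1.42% and 6.93% were at least 2-fold higher in these comparisons. The part of the pancreas markers in the values of Insig2, Soat1 and the other genes that differed there was not tested. Adipocyte markers summed to 2.05 and 1.79 on chow and to 1.70 and 1.68 on HFD, with 4 of 5 detected on every array.

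Of the genes for receptor turnover, sterol transport and esterification, Mylip and Soat1 were higher on HFD in both genotypes beyond the spot spread. Mylip encodes a ubiquitin ligase (IDOL) that sends lipoprotein receptors to degradation and is induced by the sterol-sensing receptor LXR. Its scaled signal was 1.54 in F/F chow, 1.83 in LKO chow, 2.40 in F/F HFD and 2.76 in LKO HFD, with 0.64 and 0.59 between diets and 0.25 and 0.20 between genotypes. Stard4, a soluble carrier of sterols between membranes, was at 5.94 in F/F chow, 5.14 in LKO chow, 6.97 in F/F HFD and 4.64 in LKO HFD. It was lower in LKO by -0.21 on chow and -0.59 on HFD, and its dimmer probe was lower by -0.59 and -0.45. For diet the probes of Stard4 did not give one direction in F/F (0.23 with the brighter probe and -0.52 with the dimmer one).

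The SOAT enzymes differed from each other. Soat2, the enzyme of hepatocytes and intestine, was at 7.85 in F/F chow, 7.99 in LKO chow, 9.02 in F/F HFD and 8.93 in LKO HFD, with diet differences of 0.20 and 0.16 and genotypes within the spot spread. Soat1, the form of macrophages and many other cells, ran from 0.333 in F/F chow and 0.397 in LKO chow to 0.575 in F/F HFD and 1.03 in LKO HFD. That was a 1.73-fold diet difference in F/F and 2.59-fold in LKO, and LKO was 1.79-fold above F/F on HFD. All 4 probes of Soat1 were higher on HFD in both genotypes (0.44 to 1.05 in F/F and 1.18 to 1.44 in LKO) and higher in LKO on HFD (0.33 to 0.84), but on chow they gave -0.44 to 0.25. Soat1 was below the 75th percentile of 3 of the 4 arrays, and with normexp its diet difference was 0.45 in F/F and 1.07 in LKO, against 0.79 and 1.38.

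**Figure D5:**
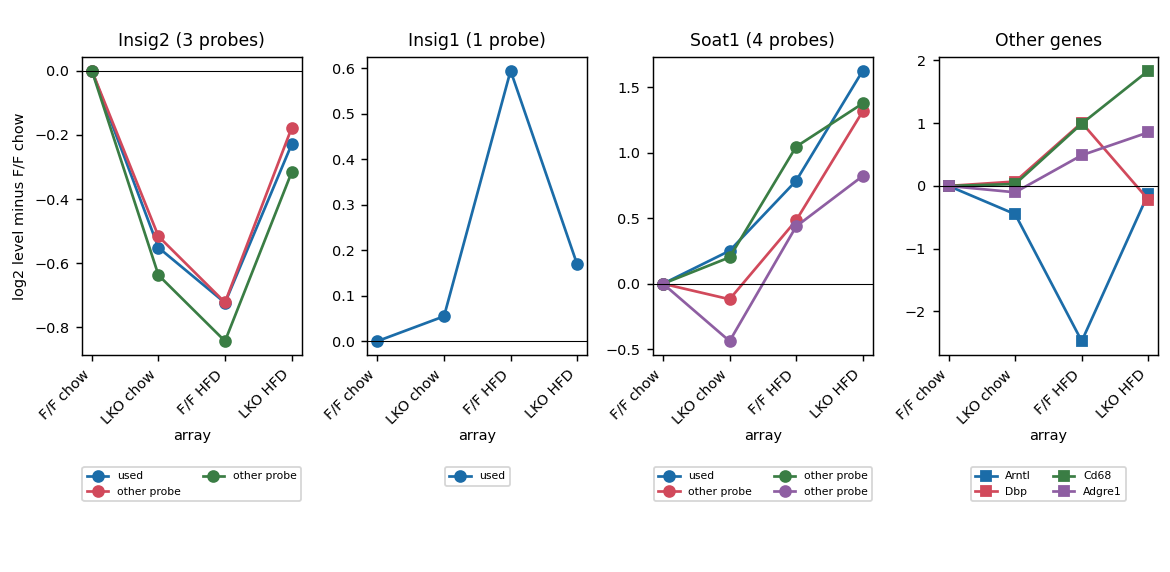
Log2 scaled signal minus that of F/F chow (y axis) on the 4 arrays (x axis) for each probe of Insig2, Insig1 and Soat1, and for the clock genes Arntl and Dbp and the macrophage genes Cd68 and Adgre1; lines join arrays for reading only, and each panel has its own scale. The 3 probes of Insig2 were lowest in F/F HFD, where Insig1 was highest. The 4 probes of Soat1 were highest in LKO HFD, as were Cd68 and Adgre1. The macrophage gene Marco, which is not drawn, was lowest there.

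Of the 6 macrophage markers, each detected on every array, 5 were higher on HFD in both genotypes, as Soat1 was. The same 5 and Soat1 were higher in LKO than in F/F on HFD. For LKO minus F/F on chow, 3 markers were above 0 and 3 below, where 51.7% of the detected genes were above 0. Of the detected genes, 46.8% (F/F) and 41.1% (LKO) were above 0 for diet, and 43.8% for genotype on HFD. The summed scaled signal of the 6 markers was 112 in F/F chow, 105 in LKO chow, 146 in F/F HFD and 184 in LKO HFD. Cd68, a lysosomal protein of macrophages, was at 2.26 (F/F) and 2.30 (LKO) on chow and at 4.49 and 8.05 on HFD. Adgre1, the surface marker of mouse macrophages, was at 5.10 and 4.75 on chow and at 7.15 and 9.21 on HFD. Marco, a scavenger receptor, was the exception and was lowest in LKO HFD (-1.64 against F/F on HFD). The part of macrophages in the Soat1 signal was not tested.

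A further 37 genes around the pathway were all measured, and for HFD minus chow their medians (0.01 in F/F and -0.09 in LKO) lay below those of the synthesis enzymes (0.55 and 0.41). Of the 37, 20 were above 0 for HFD minus chow in F/F and 9 in LKO, where 46.8% and 41.1% of the detected genes were. For LKO minus F/F, 19 were above 0 on chow (median 0.01) and 12 on HFD (median -0.17). Of the detected genes, 51.7% and 43.8% were above 0 there. The genes at least 2-fold different were Vldlr, higher on HFD in both genotypes, and Cyp7a1, lower in LKO on chow. At least 2-fold higher on HFD were 4.31% (F/F) and 6.93% (LKO) of the detected genes, and 0.536% were lower in LKO on chow. Vldlr, a receptor for triglyceride-rich lipoproteins, was at 0.361 in F/F chow, 0.509 in LKO chow, 1.55 in F/F HFD and 1.08 in LKO HFD, higher on HFD by 2.11 in F/F and 1.09 in LKO. Cyp7a1, the rate-limiting enzyme of bile acid synthesis from cholesterol, was at 5.75 (F/F) and 1.93 (LKO) on chow and at 5.59 and 2.82 on HFD. Both LKO arrays were low for Cyp7a1, by -1.57 on chow and -0.99 on HFD. Srebf1, which encodes the SREBP of fatty acid synthesis, was at 27.8 and 24.6 on chow and at 53.2 and 31.6 on HFD, with F/F HFD as the high array, as for Insig1. Of the 5 genes of the LXR arm, Cyp7a1 and the sterol exporters Abcg5 (-0.53) and Abcg8 (-0.85) were lower in LKO on HFD beyond the spot spread, and Nr1h2 (-0.08) and Nr1h3 (-0.17) lay within it. Of the detected genes, 29.5% were lower by more than the spot spread in this comparison.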

How the data were processed

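Total RNA of liver was labelled with Cy3 and hybridised to SurePrint G3 Mouse arrays, 1 per condition, on one slide with one scan. The deposited scanner output, from Agilent Feature Extraction (12.0.3.1), gives a background-subtracted intensity and flags per spot. A second deposited table holds that intensity times a constant per array, 2.60 (F/F) and 2.63 (LKO) on chow and 2.41 and 2.10 on HFD. Its making is not given in the sources used here. The kit for RNA extraction differs between the labels and the methods of the study.

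The processed intensity was divided by the 75th percentile of each array over spots that are not controls and taken to log2 (Python 3.11.15, pandas 2.3.3, numpy 2.4.6). Outlier spots were left out, spots of a probe were averaged, and the probe brightest on average was taken for the gene. Accessions were matched to symbols through RefSeq (GRCm38.p6), for 33767 of 56605 probes; the arrays name no build, so coordinates belong to the promoters alone. A gene below background on 1 array of a comparison had a bound, which no gene of the pathway needed. Lists of other genes and markers stand in the text by count. One marker of a list is not reported here and was left out of its sum. The members and lists were chosen with earlier results of these data known. All genes of the list are named, and other genes of the pathway where they were at least 2-fold different; Srebf1, Abcg5, Abcg8, Arntl, Dbp, Cd68, Adgre1 and Marco were named after their values were seen. No test was made with 1 array per condition, so p-values are not given. The number of arrays limits the precision. The steps were tested on simulated data. Alternatives were normexp (limma 3.58.1, R 4.3.3, offset 50), quantile normalization, another percentile, the deposited table, other filters, the mean of all probes, and thresholds of 1.5-fold and 4-fold. Figures were drawn with matplotlib 3.10.9.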

Additional observations from a re-analysis of the deposited data

Results flagged for a closer look

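Insig2 differed between diets in opposite directions in the 2 genotypes, with a log2 difference HFD minus chow of -0.72 in F/F and 0.32 in LKO. Its genotype difference also ran opposite ways, -0.55 on chow and 0.49 on HFD. Fdft1 was higher in LKO on chow (0.29) and lower in LKO on HFD (-0.25). With the brightest probe, each of these differences was larger than 2 SD of the difference of replicate spots. The second probe of Fdft1 gave 0.17 on chow and -0.09 on HFD, both within 2 SD. Fdft1 in both genotype comparisons and Insig2 for diet in LKO were not beyond 2 times the error of the scanner software. The flag for opposite genotype differences was added after the data were seen. Whether the differences of Insig2 and Fdft1 vary with genotype or diet was not tested, since each condition has 1 array.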

How the results depend on the processing

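No paired analysis was possible because each condition has 1 array and no replicate number is labelled. Of 756 log2 differences of single genes under 7 alternatives, 636 moved by less than the technical spread (the SD between replicate spots). Another 117 moved by more, and 3 reversed from beyond 2 SD. Dropping the filter or keeping only detected genes could not change these values, because all 27 genes are detected genes. Each of these settings adds 108 to the 636 by construction and is no check of stability. The other percentile and the deposited table shift all genes of a comparison by the same constant, so they check the scaling and not single genes. Of the 636, they gave 108 and 54, and of the 117 the deposited table gave 54. Averaging over probes could change only the 14 genes with more than 1 probe. The reversals came with averaging over a gene's probes, where Soat1 was -0.026 for LKO minus F/F on chow, Ggps1 -0.011 for LKO minus F/F on HFD, and Stard4 -0.15 for HFD minus chow in F/F. In the deposited table the medians of HFD minus chow were 0.65 in F/F and 0.47 in LKO for the 27 genes, and 0.68 and 0.55 for the synthesis enzymes, while the median of all genes moved to 0.11 and 0.07. Quantile normalization gave 0.66 for the enzymes in F/F and 0.45 for the 27 genes in LKO, and normexp gave 0.44 for the latter. With no filter and no floor, the median of all genes was -0.12 for both LKO minus F/F on HFD and HFD minus chow in F/F, and -0.21 for HFD minus chow in LKO. With the mean of all probes, 2 genes were at least 2-fold higher on HFD in F/F. At 1.5-fold, the genes higher and lower numbered 1 and 0 (LKO minus F/F on chow), 2 and 1 (on HFD), 11 and 2 (HFD minus chow in F/F) and 8 and 1 (in LKO). At 4-fold there were 0 in each comparison. Signal over background did not limit the genes of the pathway, which were well above it on all 4 arrays, and the number of arrays did.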
